A study of Mus musculus with 20 samples.

Results

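Genes of lipid-associated macrophages were read in Olfm2 knockout and wild-type mouse adipocyte cultures. The set is a list of 10 genes chosen by symbol: Trem2, Itgax, Cd9, Cd63, Gpnmb, Atp6v0d2, Acp5, Lgals3, Fabp5 and Spp1. It was chosen with earlier results of these data known, so its counts and medians beside those of all genes are descriptive. The rule took the brightest probe of each gene by its mean over the arrays. Of the 10 genes, 9 were measured among 19505 named genes, each by 1 probe, and Spp1, the gene of osteopontin, was not analysed here. Adgre1, which encodes the F4/80 surface antigen of most mouse macrophages, was read on the same arrays as a general macrophage gene.

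Lipid-associated macrophages are cells of fat tissue that gather around dying or overloaded adipocytes, take up the lipid these release and break it down in lysosomes. They were described in obese fat of mice and humans, and their program depends on the lipid-sensing receptor TREM2. Their marker genes encode surface receptors and tetraspanins, proteins of lysosomes and acid transport that are shared with osteoclasts, a lectin and a fatty acid carrier.

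The samples were total RNA from adipocytes that were obtained from mouse fat and then differentiated in culture. There were 20 arrays in 4 groups of 5: Olfm2 knockout of the depot labelled g, wild type of g, Olfm2 knockout of the depot labelled sc, and wild type of sc. The labels give neither strain, age, sex and diet nor how the knockout was made, and nothing says that the 5 samples of a group came from separate animals, so the p-values reflect only the spread among these samples, which may be technical. The knocked-out gene encodes a secreted glycoprotein, olfactomedin 2, whose fall in fat cells in obesity is the subject named in the title of the series. All levels are log2 array signals, on which a difference of 1 is a 2-fold change, and levels of different genes are not set against each other because each probe has its own brightness.

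The targeted gene and the cell types on the arrays were checked first. Olfm2 was dim everywhere, at 3.36 to 3.72 on g knockout arrays against 4.08 to 4.60 on g wild-type arrays and at 2.67 to 3.58 on sc knockout arrays against 4.28 to 5.25 on sc wild-type arrays, and it was lower by limma in both depots (adjusted p = 0.0078 in g and 0.0002 in sc). Negative control probes had array medians of 4.45 to 4.84 and 95th percentiles of 7.02 to 7.48, and a signal above that percentile is read here as detected. By this rule Olfm2 was not detected on any array, wild type included. On every g wild-type array it lay below the median of that array's negative controls, so its differences rest on signals near background. The mean of 12 mature adipocyte genes lay between 10.54 and 11.57 on every array, above that percentile. The mean of 16 general macrophage genes was also above it on every array, at 8.57 to 9.46 in g knockout, 9.75 to 10.37 in g wild type, 8.01 to 8.56 in sc knockout and 8.39 to 8.62 in sc wild type. Macrophage genes were thus detected beside those of the labelled adipocytes. So were fibroblast and endothelial genes, with means of 7 genes each at 8.79 to 9.47 and 8.01 to 9.17 over all arrays. The mean of 6 mesothelial genes was 6.06 to 8.12 in g and 4.54 to 5.06 in sc. All 6 were called higher in g in both genotypes, against 9.30% of all genes in wild type and 2.87% in knockout (limma, adjusted p under 0.05). Which cells were present was not tested. In such bulk RNA fewer cells of a type and less RNA per cell cannot be told apart. Genes of other tissues were high on some arrays. The hepatocyte mean (16 genes) exceeded 7 on 4 g knockout, 2 g wild-type, 2 sc knockout and 0 sc wild-type arrays. The mean of 9 lymphocyte genes exceeded 7 on 0 g knockout, 1 g wild-type, 2 sc knockout and 1 sc wild-type arrays, and the mean of 12 skeletal muscle genes did so on 2 sc knockout and 2 sc wild-type arrays and on no g array.

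Start-site windows of 4 genes are printed: Trem2, Gpnmb and Itgax, which were lower in g knockout cultures as Cd9, Cd63 and Lgals3 also were, and Acp5, which was not. Each window runs from 250 bases before to 50 bases after an annotated start, is given 5′ to 3′ on the strand of the gene, and comes from RefSeq (assembly GRCm38.p6), where 8 of the 10 genes had a window. The windows are chr17:48346151-48346450 on the plus strand for Trem2, chr6:49036268-49036567 on the plus strand for Gpnmb, chr7:128129300-128129599 on the plus strand for Itgax, and chr9:22130549-22130848 on the minus strand for 1 of the 3 starts of Acp5. Capitals mark matches to motifs of factors that act in macrophages and osteoclasts.
Trem2: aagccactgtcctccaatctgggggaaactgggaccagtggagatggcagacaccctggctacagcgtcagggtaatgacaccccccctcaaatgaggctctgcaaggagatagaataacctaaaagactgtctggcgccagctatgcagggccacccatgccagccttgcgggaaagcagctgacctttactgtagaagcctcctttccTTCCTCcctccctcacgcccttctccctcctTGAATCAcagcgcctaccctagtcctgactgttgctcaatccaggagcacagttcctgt
Gpnmb: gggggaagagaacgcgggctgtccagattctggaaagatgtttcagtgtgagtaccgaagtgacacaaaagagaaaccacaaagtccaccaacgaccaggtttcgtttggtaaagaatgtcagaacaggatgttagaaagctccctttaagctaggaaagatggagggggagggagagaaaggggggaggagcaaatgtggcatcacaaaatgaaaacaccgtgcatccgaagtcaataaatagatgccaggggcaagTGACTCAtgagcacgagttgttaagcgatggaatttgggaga
Itgax: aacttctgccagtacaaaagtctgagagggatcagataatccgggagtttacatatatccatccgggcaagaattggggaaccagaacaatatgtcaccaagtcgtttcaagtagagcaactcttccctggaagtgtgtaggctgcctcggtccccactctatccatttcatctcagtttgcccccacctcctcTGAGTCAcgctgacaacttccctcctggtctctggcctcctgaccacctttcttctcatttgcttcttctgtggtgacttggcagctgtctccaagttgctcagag
Acp5: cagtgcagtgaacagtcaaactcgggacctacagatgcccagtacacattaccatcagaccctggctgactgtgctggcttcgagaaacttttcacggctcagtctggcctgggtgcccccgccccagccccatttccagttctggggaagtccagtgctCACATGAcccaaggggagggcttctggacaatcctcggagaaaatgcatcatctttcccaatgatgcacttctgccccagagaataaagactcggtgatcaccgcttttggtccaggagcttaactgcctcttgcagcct
The letters searched, on both strands, were GAGGAA for the core of the PU.1 site, TGANTCA for the AP-1 site, TCATGTG for the M-box read by MITF-type factors and CACGTG for the E-box; no match overlapped another. Counted from the start site, an AP-1 match began at position -9 of Trem2, -56 of Itgax and 9 of Gpnmb, and 7.81% of all 32851 windows of the same length held one. These were the only AP-1 matches among the windows of the 8 genes. Cd9, Cd63 and Lgals3 had none, so the printed windows do not stand for all genes that fell. Trem2 also had a PU.1 match on the opposite strand at position -40, as did 28.3% of all windows on either strand. The printed Acp5 window held the only M-box match among the windows of the 8 genes, on the opposite strand at position -90 (3.77% of all windows held one), and its other 2 windows held no match. Cd63 had 2 PU.1 matches and Spp1 had 1 in 1 of its windows, while Cd9 and Lgals3 had none, and no E-box match occurred (7.15% of all windows). A match shows only that the letters are present.

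In g cultures, 6 of the 9 measured genes were lower in knockout than in wild type and 1 was higher, whereas 6.27% of all genes were called lower and 5.01% higher (limma, adjusted p under 0.05). Because the list was chosen with earlier results of these data known, such shares describe it and do not test it. Trem2 fell by 1.78, Itgax by 1.60, Gpnmb by 1.23, Lgals3 by 1.10, Cd9 by 1.07 and Cd63 by 0.55 on the log2 scale, and Acp5 rose by 0.36. Over the 9 genes the median difference was -1.10, against 0.02 over all 19505 genes. On 6 of the 9 genes every knockout array lay below every wild-type array, a pattern found in 5.73% of all genes. The general macrophage gene Adgre1 fell by 1.5, between the values of Gpnmb and Itgax.

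Trem2, the receptor for lipids and lipoproteins after which the cells are often named, had signals of 9.05, 9.47, 7.24, 9.77 and 7.72 on the g knockout arrays, against 10.54, 10.35, 10.81, 9.96 and 10.51 on the g wild-type arrays. The groups did not overlap, and 2 knockout arrays, g317 KO and g320 KO, lay more than 1 log2 unit below the other 3. The difference was -1.78 ± 0.37 (SE), a 3.44-fold lower signal in knockout (limma, adjusted p = 0.0037), and an exact two-sided permutation test over the 10 arrays gave p = 0.00794, the smallest that 252 splits allow. Itgax, the alpha X integrin known as CD11c, stood at 7.95, 8.50, 5.59, 8.21 and 6.19 in g knockout, against 8.91, 8.83, 9.47, 8.57 and 8.67 in g wild type. The same 2 knockout arrays were the low ones, with Itgax there under the 95th percentile of their negative control probes. Its difference was -1.60 ± 0.41 (SE; limma, adjusted p = 0.0135).

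The tetraspanins moved less and with less scatter. Cd9, a tetraspanin of the cell surface, had 9.01, 9.46, 8.51, 9.86 and 9.24 in g knockout, against 10.20, 10.03, 10.73, 10.20 and 10.27 in g wild type. Every knockout array was lower, the SE was 0.18, and the signal was 2.10-fold lower (limma, adjusted p = 0.00077). Cd63, a tetraspanin of late endosomes and lysosomes, averaged 10.20 ± 0.22 in g knockout and 10.75 ± 0.22 in g wild type (SD, n = 5 each). Its groups, 9.88 to 10.50 in knockout and 10.51 to 11.02 in wild type, came close without overlapping (limma, adjusted p = 0.0033).

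**Figure D1:**
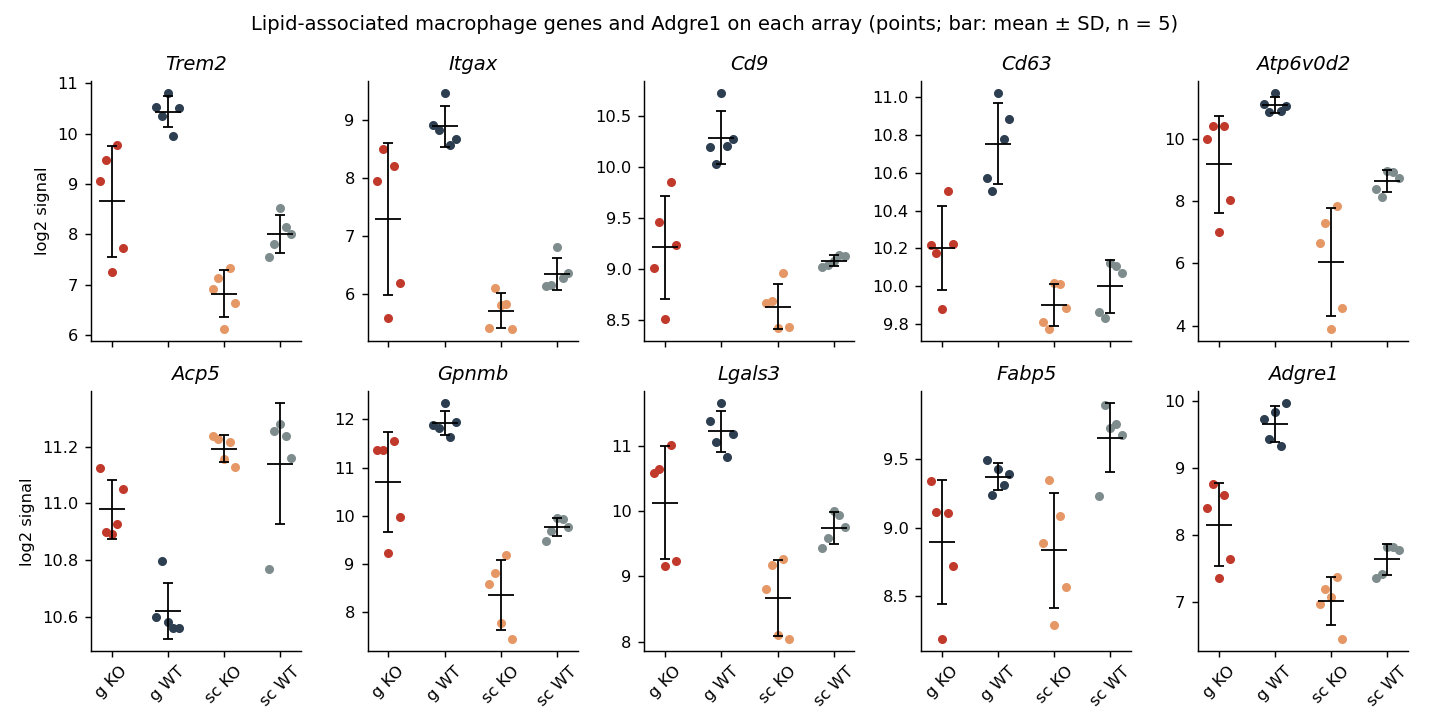
Log2 signal of the 9 measured genes and of Adgre1 on each of the 20 arrays, by group, with 1 point per array and bars for the mean ± SD (n = 5). In g, Trem2 lies at 7.24 to 9.77 in knockout and 9.96 to 10.81 in wild type, and Acp5 is the gene with knockout above wild type.

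Genes of lysosomes and acid transport did not all move one way. Gpnmb, a membrane glycoprotein of lysosomes and melanosomes, stood at 11.36, 11.38, 9.23, 11.56 and 9.98 in g knockout, against 11.89, 11.83, 12.34, 11.64 and 11.95 in g wild type. All 5 knockout arrays were below the wild-type range, 3 of them by little, and the difference was -1.23 ± 0.38 (SE; limma, adjusted p = 0.0388). Atp6v0d2, the d2 subunit of the proton pump (V-ATPase) found mainly in osteoclasts and some macrophages, had 10.00, 10.41, 7.01, 10.42 and 8.02 in g knockout, against 11.11, 10.84, 11.47, 10.88 and 11.05 in g wild type. Its groups did not overlap either, and its mean difference was the largest of the 9 genes at -1.90, but it fell short of the threshold (SE 0.68; limma, adjusted p = 0.0782). The fit shares its estimate of spread over all 4 groups, and the SD was 1.56 in g knockout and 1.73 in sc knockout. Without the arrays whose skeletal muscle mean exceeded 7, all of them sc arrays, Atp6v0d2 was called in g at the same -1.90 (limma, adjusted p = 0.0232). Acp5, the tartrate-resistant acid phosphatase that marks osteoclasts, ran the other way. It had 11.13, 10.90, 10.89, 10.93 and 11.05 in g knockout, against 10.60, 10.80, 10.58, 10.56 and 10.56 in g wild type. The knockout arrays were all higher, by 0.36 ± 0.09 (SE), a 1.28-fold higher signal (limma, adjusted p = 0.0135).

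The lectin and the lipid carrier differed in how far they moved. Lgals3, galectin-3, which binds galactosides on the cell surface and on damaged lysosomes, averaged 10.13 ± 0.87 in g knockout and 11.23 ± 0.31 in g wild type (SD, n = 5 each). The groups overlapped through g318 KO at 11.02, and the difference passed the test (limma, adjusted p = 0.0309). Fabp5, a fatty acid binding protein made by macrophages and also by adipocytes, had 9.34, 9.12, 8.19, 9.11 and 8.72 in g knockout, against 9.5, 9.24, 9.43, 9.32 and 9.39 in g wild type, and its difference of -0.48 did not pass (limma, adjusted p = 0.138). Adgre1 stood at 8.40, 8.77, 7.37, 8.60 and 7.65 in g knockout, against 9.73, 9.43, 9.84, 9.32 and 9.97 in g wild type. It was 2.83-fold lower without overlap, with an SE of 0.23 (limma, adjusted p = 0.0004), and an exact two-sided permutation test gave p = 0.00794.

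The calls in g, that of Adgre1 included, depended on the arrays and on other transcripts. So did the number of all genes called, which was 9 to 2858 over the alternative fits other than single arrays left out. Without g286 WT, g287 WT, g307 WT, g309 WT, g317 KO or g320 KO, Gpnmb was no longer called (limma, adjusted p 0.0563 to 0.116), and without any of these other than g287 WT the same held for Lgals3 (0.0595 to 0.101), while Atp6v0d2 was called without g306 KO or g318 KO (0.0493 and 0.0484). The hepatocyte mean was 5.57 to 10.32 in g knockout, against 5.16 to 8.73 in g wild type, with 0 of its 16 genes called; with that mean as a covariate 4 of the 9 genes were called (Trem2, Cd9, Cd63 and Acp5, with Trem2 at -1.56), and without the arrays above 7, which leaves 1 knockout array, only Cd9 was, at -1.34 with Trem2 at -1.5, and Adgre1 was not (-1.34; limma, adjusted p = 0.0885). The mature adipocyte mean was 11.13 to 11.35 in g knockout, against 10.54 to 10.97 in g wild type, and with it as a covariate no gene of the list was called although Trem2 stood at -1.80, nor was Adgre1 at -1.44 (limma, adjusted p = 0.312); since the groups do not overlap in that mean, it and genotype cannot be told apart. Over the alternatives computed, the adjusted p ranged from 0.000919 to 0.724 for Trem2, from 0.0178 to 0.564 for Gpnmb, from 0.00933 to 0.518 for Lgals3 from 0.0232 to 0.707 for Atp6v0d2 and from 0.000201 to 0.312 for Adgre1.

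**Figure D2:**
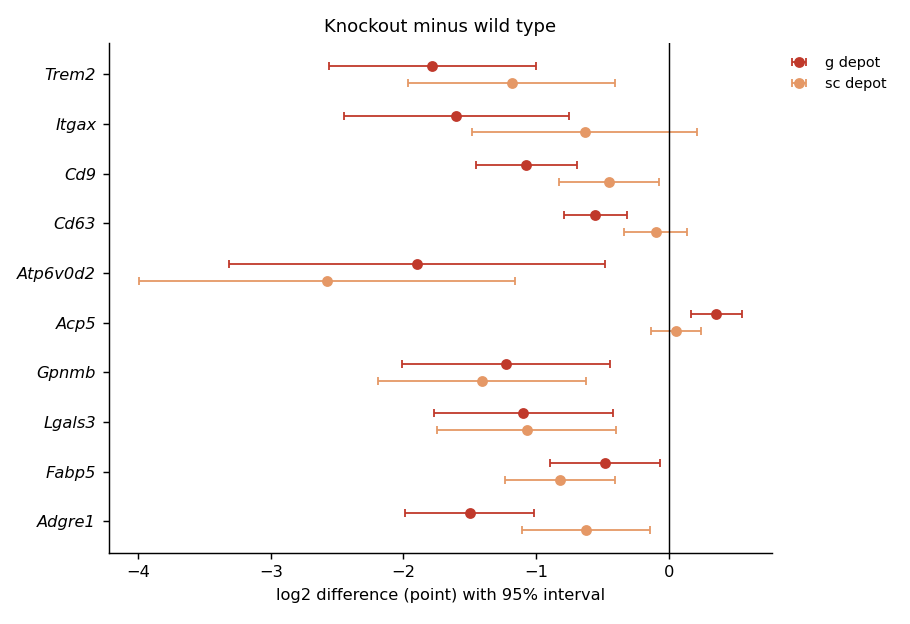
Log2 difference of knockout minus wild type in the g and the sc depot for the 9 measured genes and Adgre1, as points with 95% intervals of the limma fit. In g all genes but Acp5 lie below 0, and in sc Atp6v0d2 has the lowest value, -2.58.

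In sc cultures, 0 of the 9 genes were called, and 0.379% of all genes were called lower (limma, adjusted p under 0.05). The measured differences of 8 of the 9 genes were still below 0, with a median of -0.82 against 0.01 over all genes, and 6 of the 9 had an unadjusted p under 0.05, as did 2017 of all 19505 genes. On 6 genes, Trem2, Itgax, Cd9, Gpnmb, Atp6v0d2 and Lgals3, every sc knockout array lay below every sc wild-type array, a pattern found in 1.53% of all genes. Over all genes, 132 were called in sc, against 2200 in g.

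Trem2 had 6.91, 7.13, 6.11, 7.32 and 6.62 on the sc knockout arrays, against 7.54, 7.81, 8.52, 8.14 and 8.01 on the sc wild-type arrays. The groups did not overlap, and the difference was -1.18 ± 0.37 (SE) with a limma adjusted p of 0.185; an exact two-sided permutation test of this gene alone gave p = 0.00794. Gpnmb had 8.59, 8.82, 7.77, 9.18 and 7.44 in sc knockout, against 9.48, 9.70, 9.97, 9.93 and 9.77 in sc wild type, a difference of -1.41 ± 0.38 (SE; limma, adjusted p = 0.0975). Lgals3 differed by -1.07 (limma, adjusted p = 0.154) and Fabp5 by -0.82 (limma, adjusted p = 0.0629).

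Atp6v0d2 had the most negative difference of all 19505 genes in sc, at -2.58 ± 0.68 (SE; limma, adjusted p = 0.0938). Its signals were 6.64, 7.29, 3.88, 7.85 and 4.58 in sc knockout, against 8.37, 8.14, 8.95, 8.92 and 8.75 in sc wild type. The arrays sc317KO and sc320KO were below the median of their own negative controls, so no exact fold can be given for them, and the other 3 knockout arrays, at 6.64 to 7.85, were all below the lowest wild-type array at 8.14.

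The remaining genes differed less in sc. Cd9 stood at 8.42 to 8.96 in sc knockout and 9.02 to 9.14 in sc wild type, a difference of -0.45 without overlap (limma, adjusted p = 0.352). Itgax was at 5.39 to 6.10 in sc knockout and 6.13 to 6.81 in sc wild type, a difference of -0.64 (limma, adjusted p = 0.644), and every sc array lay under the 95th percentile of its negative controls. Cd63 differed by -0.10 and Acp5 by 0.05, both with overlapping groups (limma, adjusted p = 0.834 and 0.9). Adgre1 stood at 6.97, 7.20, 7.08, 7.38 and 6.44 in sc knockout, against 7.36, 7.42, 7.83, 7.82 and 7.78 in sc wild type, so that 1 knockout array reached into the wild-type range. Its difference was -0.62 ± 0.23 (SE; limma, adjusted p = 0.293), and the exact permutation test of this gene, two-sided, gave p = 0.0159. On sc300KO, sc317KO and sc320KO both Trem2 and Adgre1 lay under the 95th percentile of the negative controls, so their sc differences, and the Adgre1-relative values in sc, rest in part on signals near background.

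Other transcripts moved with the low arrays in sc. The arrays sc317KO and sc320KO, the lowest for Trem2, Gpnmb, Cd9, Lgals3, Atp6v0d2 and Fabp5, had lymphocyte means of 8.50 and 8.38 and muscle means of 7.77 and 7.31, against lymphocyte means of 5.30 to 5.38 on the other 3 sc knockout arrays. Without arrays whose lymphocyte mean exceeded 7, Atp6v0d2 differed by -1.43, Gpnmb by -0.98, Trem2 by -1.0 and Lgals3 by -0.75, with 0 genes called. Without arrays whose hepatocyte mean exceeded 7, which keeps those 2 arrays and 1 other in sc knockout, 4 genes were called: Trem2 at -1.38, Gpnmb at -1.76, Lgals3 at -1.31 and Atp6v0d2 at -3.38 (limma, adjusted p 0.0279, 0.0139, 0.035 and 0.0228). Leaving out single arrays brought the count to 1 in 3 cases: Fabp5 without sc286WT or sc306KO (limma, adjusted p = 0.0357 and 0.0226), and Atp6v0d2 without sc318KO (limma, adjusted p = 0.0372). Over the alternatives computed, the adjusted p in sc ranged from 0.0279 to 0.826 for Trem2, from 0.0139 to 0.692 for Gpnmb, from 0.035 to 0.764 for Lgals3, from 0.0228 to 0.714 for Atp6v0d2 and from 0.0221 to 0.535 for Fabp5.

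The difference between the depots' knockout effects was itself tested, and 0 of the 9 genes passed (limma; 0.0769% of all genes did). The effect in g minus the effect in sc ran from -0.97 for Itgax (limma, adjusted p = 0.49) to 0.68 for Atp6v0d2 (limma, adjusted p = 0.816), and it was -0.88 for Adgre1 (limma, adjusted p = 0.272). That 6 genes fell in g and none passed in sc does not by itself show that the depots differ. At an unadjusted p under 0.05, 3 of the 9 genes differed between the depots, as did 2537 of all 19505 genes. The 95% interval of the Trem2 difference ran from -1.70 to 0.50.

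To set the genes against macrophage content as far as 1 gene measures it, each gene was also read relative to Adgre1, as its log2 signal minus that of Adgre1 on the same array. Since Adgre1 itself was lower in knockout, this scale shifts the median of all genes to 1.52 in g and to 0.63 in sc. In g, 0 of the 9 genes were lower relative to Adgre1 (0.0461% of all genes were) and 3 were higher, whereas 97.9% of all genes were higher on this scale. The 9 genes had a median of 0.40 there, and 6 of them differed by -0.40 to 0.43.

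Relative to Adgre1, Trem2 stood at 0.49 ± 0.52 in g knockout and 0.78 ± 0.18 in g wild type (SD, n = 5 each). The groups overlapped, and the difference was -0.28 with a 95% interval from -0.82 to 0.25 (limma, adjusted p = 0.292). Adjustment changed little here, from an unadjusted limma p of 0.289, because nearly all genes were called on this scale in g. Adjusted p in g on this scale, or on that of the macrophage mean below, thus stand close to unadjusted ones. Itgax differed by -0.10 on this scale and Atp6v0d2 by -0.40 (limma, adjusted p = 0.717 and 0.382), while Gpnmb, Lgals3 and Cd9 differed by 0.27, 0.40 and 0.43 (limma, adjusted p = 0.302, 0.105 and 0.0881). An interval that spans 0 does not show that these genes and Adgre1 moved alike. The 3 genes that were higher relative to Adgre1 were Cd63 by 0.95, Fabp5 by 1.02 and Acp5 by 1.86, with limma adjusted p of 0.00072, 0.00023 and 1.9e-06. Cd9 was also called, at 0.54 and 0.52, without g300 KO or g306 KO (limma, adjusted p = 0.0478 and 0.0393, with 0.0393 to 0.728 over the alternatives). With the mean of the 16 general macrophage genes in place of Adgre1, Trem2 was lower by this measure at -0.78 (limma, adjusted p = 0.0137, with 0.0137 to 0.612 over the alternatives). By that measure Cd63 and Fabp5 were also higher, at 0.45 and 0.53 (limma, adjusted p = 0.0112 and 0.0294), and Acp5 at 1.36, while Itgax stood at -0.60 and Atp6v0d2 at -0.89 without being called (limma, adjusted p = 0.0579 and 0.141). A rise is what most genes show once a fallen reference is subtracted. Over the alternatives other than single arrays left out, that measure among them, 18515 to 19104 of all genes were called. Relative to Adgre1, Cd63 and Fabp5 rose by less than the median of all genes, 1.52.

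**Figure D3:**
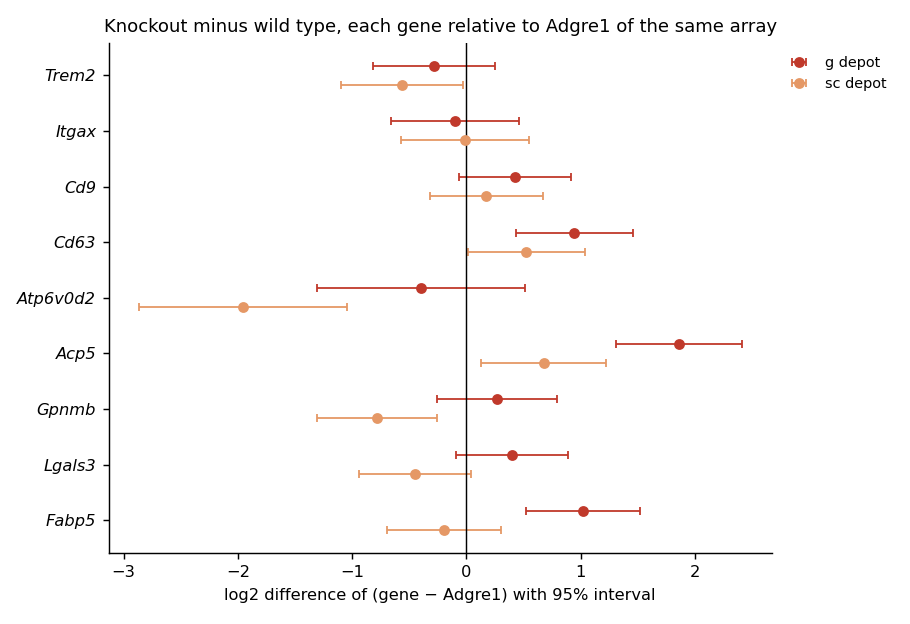
Log2 difference of knockout minus wild type after the Adgre1 signal of the same array is subtracted, for the 9 measured genes in the g and the sc depot, as points with 95% intervals. Cd63, Acp5 and Fabp5 lie above 0 in g, where the median of all genes was 1.52, and Atp6v0d2 has the lowest value in sc, -1.95.

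In sc, 0 of the 9 genes were called relative to Adgre1, with 0.159% of all genes called. Atp6v0d2 had -0.97 ± 1.53 in sc knockout and 0.99 ± 0.16 in sc wild type relative to Adgre1 (SD, n = 5 each). Its difference was -1.95 ± 0.45 (SE; limma, adjusted p = 0.0577) and the groups did not overlap, but its signals on sc317KO and sc320KO were below the control median, so the size of the difference is not exact. Gpnmb differed by -0.78 and also did not overlap between genotypes (limma, adjusted p = 0.0621), nor did Lgals3, which differed by -0.45 (limma, adjusted p = 0.097). Trem2 differed by -0.56 with overlapping groups (limma, adjusted p = 0.0722), and Itgax by -0.01. The calls here sat near the threshold: Atp6v0d2 was called without sc286WT, sc306KO or sc318KO (limma, adjusted p 0.0249 to 0.0465), and Gpnmb and Acp5 without sc318KO (limma, adjusted p = 0.0398 and 0.0401). Such calls also follow how many of all genes pass on this scale, 31 in the main fit and 3 to 11273 with 1 array left out. Over the alternatives the adjusted p ranged from 0.0249 to 0.197 for Atp6v0d2, from 0.0398 to 0.197 for Gpnmb and from 0.0401 to 0.277 for Acp5. The difference between depots was not tested on this scale.

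The depots were also compared within each genotype. Whether the arrays of both depots were normalized together is not given in the sources used here, which bears on each g minus sc difference and on the order of the group means. In wild type, 7 of the 9 genes were higher in g than in sc and 1, Acp5, was lower, against 9.30% of all genes called higher and 8.48% called lower (limma, adjusted p under 0.05). The rises were 2.55 for Itgax, 2.44 for Atp6v0d2, 2.43 for Trem2, 2.16 for Gpnmb, 1.48 for Lgals3, 1.20 for Cd9 and 0.76 for Cd63, and Adgre1 was higher by 2.02. Each of these 7 genes had every g wild-type array above every sc wild-type array, as 8.73% of all genes did. Trem2 was 5.39-fold higher in g wild type, with an adjusted p of 0.00011 by limma, and Acp5 was lower by 0.52 with overlapping groups (limma, adjusted p = 0.00039). Fabp5 differed by -0.29 and was not called (limma, adjusted p = 0.368). The sc signals of Itgax lay within the range of the negative controls, so its depot difference may be understated.

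In knockout, 5 genes were higher in g than in sc, against 2.87% of all genes: Atp6v0d2 by 3.12, Gpnmb by 2.34, Trem2 by 1.83, Itgax by 1.58 and Lgals3 by 1.46 (limma, adjusted p under 0.05), and Adgre1 was higher by 1.14. Only Gpnmb of the 9 genes had every g knockout array above every sc knockout array, which 2.31% of all genes did. Cd9 differed by 0.58 and Cd63 by 0.30 without being called (limma, adjusted p = 0.0823 and 0.167), and Cd9 was called without g317 KO, at 0.76 (limma, adjusted p = 0.00602, with 0.00602 to 0.968 over the alternatives). Itgax was no longer called without any 1 of g300 KO, g306 KO, g318 KO, sc300KO, sc317KO and sc320KO (limma, adjusted p 0.0532 to 0.0941, with 0.000967 to 0.864 over the alternatives). Without the arrays whose lymphocyte mean exceeded 7, the count fell to 1, Gpnmb.

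**Figure D4:**
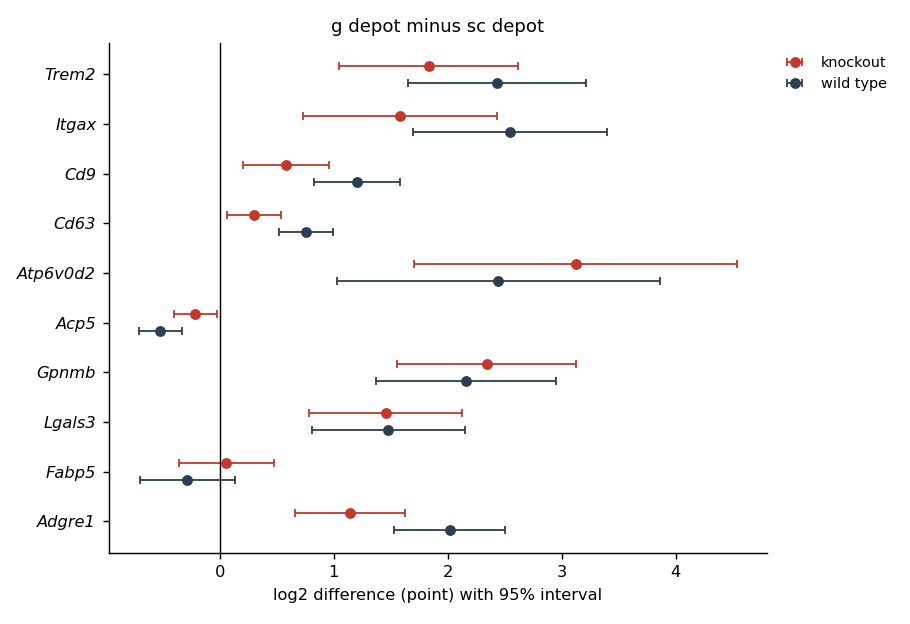
Log2 difference of the g depot minus the sc depot in knockout and in wild type for the 9 measured genes and Adgre1, as points with 95% intervals of the limma fit. In wild type 7 genes lie between 0.76 and 2.55, and Acp5 lies below 0 in both genotypes.

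By group means, 7 of the 9 genes and Adgre1 had the same order of levels, with g wild type highest, then g knockout, then sc wild type, then sc knockout. For all 7 genes the middle neighbours, g knockout and sc wild type, shared part of their range, and so did the genotypes of g for Lgals3 and those of sc for Cd63. Acp5 had the exact opposite order, from 11.19 ± 0.05 in sc knockout and 11.14 ± 0.21 in sc wild type to 10.98 ± 0.10 in g knockout and 10.62 ± 0.10 in g wild type (SD, n = 5 each). Fabp5 was highest in sc wild type at 9.66 ± 0.25, followed by g wild type at 9.37 ± 0.10, g knockout at 8.89 ± 0.45 and sc knockout at 8.84 ± 0.42, so it alone put both wild-type groups above both knockout groups.

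Related genes were counted from lists drawn up with earlier results of these data known. Of all genes, 6.27% were called lower and 5.01% higher in g knockout, and 0.379% lower and 0.297% higher in sc knockout (limma, adjusted p under 0.05). Of 16 general macrophage genes, Adgre1 among them, 15 were called lower in g knockout and 0 higher, with a median of -0.98. They included Fcgr1, an immunoglobulin receptor, at -1.51, Cd14, a co-receptor for bacterial lipopolysaccharide, at -1.07, and C1qc, a complement subunit, at -1.03. In sc 0 of the 16 were called, with a median of -0.36. Of 10 genes of TREM2 signalling, 6 fell in g knockout and 0 rose, with a median of -0.70. Tyrobp, the adaptor that carries the TREM2 signal, fell by 1.29, the kinase Syk by 0.75 and Inpp5d, a lipid phosphatase that damps the pathway, by 0.86. The proteases that shed TREM2 from the surface, Adam17 and Adam10, fell by 0.68 and 0.37. In sc 1 of the 10 was called, the TREM2 ligand Apoe, which rose by 0.40.

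The lysosomal and acid-transport genes that surround Gpnmb, Atp6v0d2 and Acp5 were mostly lower in g knockout. Of 16 lysosomal genes 12 fell and 0 rose, with a median of -0.63; Hexa, a hexosaminidase subunit, fell by 0.71, Ctsa, a protective carboxypeptidase, by 0.70, Asah1, acid ceramidase, by 0.65 and Grn, progranulin, by 0.61. Of 15 other V-ATPase genes 7 fell and 0 rose, among them Tcirg1, the a3 subunit of osteoclasts, by 1.08, and Atp6v1b2 by 0.93. Of 13 MITF-family and osteoclast genes 7 fell and 0 rose. These included Ctsk, the collagen-cutting cathepsin, by 1.56 and Dcstamp, needed for cell fusion, by 1.10. Mitf itself fell by 0.89 and Tnfrsf11a, the RANK receptor, by 0.85. The Dcstamp means, 6.02 in g knockout and 7.12 in g wild type, were under the negative-control percentile used for detection. The size of the Dcstamp fall is therefore not exact. Acp5, a standard companion of Ctsk in osteoclasts, was thus higher in the same cultures in which Ctsk was lower. The 5 melanocyte genes, which share Gpnmb and Mitf biology, had means of 4.39 to 4.65 in g knockout and 4.16 to 4.64 in g wild type, near the negative controls, and 0 were called. In sc 0 genes of the lysosomal, V-ATPase and MITF lists were called.

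Genes for lipid handling fell in part. Of 14 such genes 7 were lower in g knockout and 0 higher: Olr1, a receptor for oxidized lipoprotein, fell by 1.82, Msr1, a scavenger receptor, by 1.66, Nceh1, which frees stored cholesterol, by 1.55 and Plin2, a lipid droplet coat protein, by 0.69. In sc none of the 14 passed. Olr1 stood at -1.01 (limma, adjusted p = 0.0522) and Plin2 at -0.61 (limma, adjusted p = 0.0542). Mmp12, a macrophage elastase, stood at -2.33 (limma, adjusted p = 0.0975). The Olr1 means were 4.83 in g knockout, 6.65 in g wild type, 4.44 in sc knockout and 5.45 in sc wild type. All of these lay under the negative-control percentile used for detection, so the size of the Olr1 differences is not exact. Of 4 other beta-2 integrin genes 3 fell in g, with Itgad, the alpha D chain, at -2.01 and Itgb2, the partner chain of Itgax, at -1.12, and Itgad also fell in sc by 2.11. The Itgad means of 5.15 in g knockout, 7.16 in g wild type and 5.42 in sc knockout were under that percentile too, so the size of its falls is not exact. Only the sc wild-type mean, 7.53, was above it. Of 8 other tetraspanins 1 fell in g, Cd53, which is found on white blood cells, by 1.25. With 6.27% of all genes called lower in g, that count does not set the tetraspanins apart. Of 7 osteopontin receptor genes 2 fell in g, Cd44 by 1.32 and Itgav by 0.36.

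**Figure D5:**
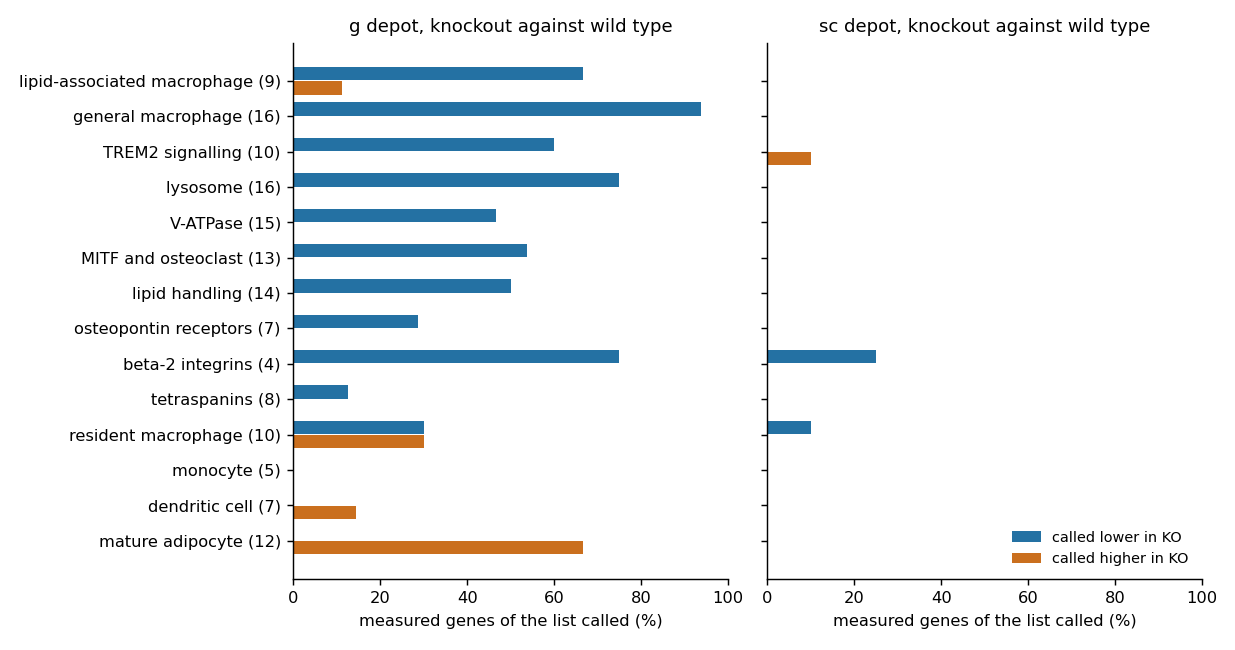
Percent of the measured genes of each list that were called lower or higher in knockout than in wild type (limma, adjusted p under 0.05), with the g depot on the left, the sc depot on the right and the number of measured genes in brackets. The general macrophage list has 15 of 16 genes lower in g, and most lists have none called in sc.

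Markers of other immune cells did not all move with the list. Genes of tissue-resident macrophages split in g: Folr2, Pf4 and Mrc1 fell by 1.08, 0.70 and 0.56, while Lyve1, Cd163 and Cbr2 rose by 1.10, 1.04 and 0.67, and 4 of the 10 were not called. Their median difference was 0.11, and in sc only Mrc1 of the 10 was called, lower by 0.55. Of 5 monocyte genes and 9 lymphocyte genes 0 were called in g, and of 7 dendritic cell genes 1, Cd209a, rose by 0.60. With 5.01% of all genes called higher in g, that count does not set the dendritic cell genes apart. All 8 mast cell genes fell in g, from -0.63 for Kit to -2.65 for the protease Mcpt4, with a list mean of 5.56 to 6.38 in g knockout and 7.41 to 8.34 in g wild type. Of 12 mature adipocyte genes 8 rose in g knockout and 0 fell, among them Retn, resistin, by 1.38 and Slc2a4, the insulin-regulated glucose transporter, by 1.23. The part of these shifts in the lower signals of Trem2, Gpnmb and the rest was not tested beyond the covariate fits above.

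Within groups most of the genes went up and down together from array to array. After group means were removed, Pearson's r over the 20 arrays had a median of 0.71 over 36 pairs and reached 0.96 between Gpnmb and Lgals3 and 0.95 between Trem2 and Lgals3. Acp5 stood apart, with r between -0.03 and 0.23 to 7 of the other 8 genes and 0.46 to Fabp5. With Adgre1 the r values were highest for Gpnmb, Lgals3, Itgax and Trem2, at 0.89, 0.88, 0.86 and 0.86, and lowest for Acp5 at 0.14. These are descriptions over arrays of 4 groups that share differences in other tissues, and they carry no p-value. In g knockout, g317 KO was the lowest for all 9 genes, with a hepatocyte mean of 10.32, and g320 KO, low for most of them, had 9.10. The higher arrays g300 KO, g306 KO and g318 KO had hepatocyte means of 5.57, 9.53 and 7.51.

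The genes whose pattern over the 20 arrays was most like the mean of the 9 were, outside the list, Tm4sf19 (r = 0.98), Dpep2 (0.97), Lipa (0.97), Galc (0.97), Clec4a2 (0.97), Lgmn (0.97), Cd300lb (0.96), Ptchd1 (0.96), Il1rn (0.96) and Slc37a2 (0.96). Lipa encodes lysosomal acid lipase, Galc a lysosomal galactosidase, Lgmn a lysosomal protease, and Il1rn the antagonist of the interleukin-1 receptor. Tm4sf19 averaged 7.49 in g knockout and 9.16 in g wild type, and 5.89 in sc knockout and 7.16 in sc wild type. With group means removed the highest were Lipa (r = 0.96), C3ar1 (0.96), Dpep2 (0.95), Anxa1 (0.95) and Ptchd1 (0.95). Adgre1 was 75th by the first measure (r = 0.94) and 80th by the second (r = 0.88).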

How the data were processed

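Total RNA (100 ng per sample) was labelled with biotin by the GeneChip WT PLUS procedure, per the labels' protocols, and measured on 20 one-colour arrays. Per the submitters' processing notes, the authors used RMA and limma. What was deposited are log2 signals, 1 per probe and array. Neither versions nor whether RMA was run on all arrays together is stated in those notes, which limits comparisons between depots. The number of arrays limits the precision. The array medians were 6.12 to 6.19, and no 2 arrays were identical (highest r 0.989).

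Groups and replicate numbers came from the sample titles. The design text of the series names another gene, PKP2, for the sc arrays; the labels, which give Olfm2, were used. Of 28846 probes, 6640 controls were left out, 19572 had 1 gene symbol in the platform annotation and 2634 had none and stayed unnamed. The highest-mean probe per gene left 19505 genes.

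Group means were fitted in R 4.3.3 with limma 3.58.1 (lmFit, contrasts.fit, eBayes; 4 groups, 16 residual degrees of freedom, no covariate), with two-sided p-values adjusted by Benjamini-Hochberg over all genes in each of 5 comparisons; called means an adjusted p under 0.05. The Adgre1-relative fits used all other genes. The fit was tested on simulated data. Levels are printed as log2 signals and SE is the moderated SE. Trem2 and Adgre1 also had an exact permutation test over arrays.

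The members and the marker lists (21 of them) were chosen with earlier results of these data known. All members, Adgre1 and Olfm2 were named. List genes were named from up to 4 of each list with the smallest p and any called gene of a list of 10 or fewer. Not every list gene that qualified is printed. Also named were the 10 and 5 genes most correlated with the mean of the scaled members over arrays, before and after group means were taken off. Alternatives covered normalization, dim genes, probe set, array weights, variance model, replicate block, covariates, the arrays fitted and each array left out; the skeletal muscle and mature adipocyte alternatives were added after seeing the data. Promoter windows came from RefSeq (GRCm38.p6).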

Additional observations from a re-analysis of the deposited data

Results flagged for a closer look

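Only Acp5 had single arrays far from the rest of their group, by Dixon's test at the 95% level. On g287 WT it was highest at 10.7958, against 10.56 to 10.60 on the other 4 arrays, and on sc286WT it was lowest at 10.7678, against 11.16 to 11.28 on the other 4. Over the measured genes and Adgre1, 40 groups were examined and 2 stood out, where chance gives about 1 in 20. The array g287 WT still lay below all g knockout arrays, which began at 10.89. The array sc286WT also had a lymphocyte mean of 8.21 and a skeletal muscle mean of 11.04, and their part in its Acp5 signal was not tested. Without it, the Acp5 difference in sc was -0.04.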

How the results depend on the processing

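Counts of called members, 7 in g, 0 in sc, 0 for the difference of knockout effects, 8 between depots in wild type and 5 in knockout, stayed within 1.5 times under quantile normalization and with all non-control probes. In g the count was 4 with a hepatocyte covariate or with only the compared arrays fitted, 1 without hepatocyte-high arrays, 0 with Adgre1 or the mature adipocyte mean as a covariate, and 5 to 8 with 1 array left out. In sc it was 1 with dim genes left out, with array weights and with the adipocyte covariate, 4 without hepatocyte-high arrays, and 0 to 1 with 1 array left out. Totals over all genes moved too. With 1 array left out, 1425 to 2305 genes were called in g and 60 to 181 in sc. Over the other alternatives, 9 to 2858 were called in g and 21 to 233 in sc. Between depots these were 298 to 5130 in wild type and 118 to 969 in knockout. Changes in the member counts were not separated from changes in these totals. With Adgre1 as a covariate the depot counts were 1 (wild type) and 0 (knockout), and in knockout the count was 1 with only the compared arrays or without the lymphocyte-high or muscle-high arrays. Relative to Adgre1 in sc it was 3 under quantile normalization and 0 to 3 with 1 array left out, and of all genes 31 were called, against 7908 and 3 to 11273 under those alternatives.

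Nothing in the labels says that the replicate numbers pair samples across depots, and they were not treated as pairs: same-numbered arrays had residual correlations of -0.46 to 0.14 (median 0.01, 2 of 10 above 0.1), which does not show that they are unpaired. The consensus correlation was 0.0863, and 0.342 relative to Adgre1. With the number as a replicate block the counts were 7, 0, 0, 8 and 5, and relative to Adgre1 3 in g and 1 in sc, where Atp6v0d2 was called.

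Signs changed mainly with Adgre1 as a covariate, whose values do not overlap between the genotypes in g. There the g knockout differences were 0.33 for Trem2, 0.97 for Gpnmb, 0.76 for Lgals3, 1.58 for Atp6v0d2, 0.70 for Itgax and 0.39 for Fabp5, those in sc 0.0636 for Cd63 and 0.32 for Itgax, and the difference of effects 0.38 for Itgax. Between depots in wild type they were -0.41 for Trem2, -0.80 for Gpnmb, -1.01 for Lgals3, -2.24 for Atp6v0d2 and -0.54 for Itgax, and in knockout -0.0297 for Cd9, -0.17 for Itgax and -0.60 for Fabp5. Acp5 was at -0.0149 in g and -0.0273 in sc with the adipocyte covariate, and at -0.00742 in sc without lymphocyte-high arrays. Without the lymphocyte-high arrays the Atp6v0d2 difference of effects was -0.47 and Fabp5 between depots in knockout -0.21, and without the muscle-high arrays these were -0.56 and -0.21. Relative to the general macrophage mean in place of Adgre1, Gpnmb was at -0.22, Cd9 at -0.0665 and Lgals3 at -0.0903 in g, and Cd9 at -0.15 in sc; with the hepatocyte covariate Itgax relative to Adgre1 was at 0.14 in g and 0.17 in sc. With 1 array left out, Acp5 in sc ranged from -0.0407 to 0.0871, Fabp5 between depots in knockout from -0.078 to 0.236, and Itgax relative to Adgre1 from -0.251 to 0.126 in g and from -0.0744 to 0.0582 in sc. The cause was not tested for any of these.

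Depth does not apply to arrays; signals near the negative controls (Itgax in sc and on 2 g knockout arrays, Trem2 and Adgre1 on 3 sc knockout arrays, Atp6v0d2 on 4 knockout arrays) limit the differences that can be read there. The main limits are 5 arrays a group of unstated origin and transcripts of other tissues that differ between arrays.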
